A study of Mus musculus with 6 samples.

Results

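The spliceosome core and SR protein genes were examined in B cell progenitors of old and young mice. They were taken as the genes whose array symbol begins with Snrp, Sf3a or Sf3b and a digit, Srsf and a digit, Lsm and a digit, or U2af and a digit, on probe sets annotated with that gene alone. By this rule 45 genes were found among 19938 genes measured by at least 1 unshared probe set, on 63 of 23410 tested probe sets. Where a gene had several probe sets, the one with the highest mean stands for it. The old group held 3 arrays of progenitors sorted at the pro-B and pre-B stages from BALB/c mice of 24 months, and the young group 3 arrays of such cells from BALB/c mice of 2 months. BALB/c is an inbred strain, no allele or agent was added in either group, and the cells were not treated before the RNA was taken. Each array was made from 100 ng of amplified RNA. The labels say neither how many mice gave the RNA of an array nor how the cells were gated, so p-values measure only the spread between these arrays. Values are log2 of the deposited intensity of a probe set, and differences are old minus young on that scale.

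Introns are cut out of a transcript by the spliceosome, which assembles from small nuclear RNAs, each wrapped in a ring of Sm or Lsm proteins, and many further proteins. U1 marks the start of an intron, while U2AF and the U2 particle, with its SF3A and SF3B complexes, mark the branch point and the intron's end. SR proteins bind exons, help both particles to settle there and take part in the choice between alternative exons. In B cell progenitors such choices shape, among others, immunoglobulin and surface receptor transcripts.

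Promoter windows from RefSeq were matched for 37 of the 45 genes, and 4 are shown. They belong to a pair of genes with low fitted differences (Sf3b1 and Srsf5) and to genes whose brightest probe set stayed above background on every array (Snrpg and Snrpa). Each line gives the 150 bases before the transcript start in GRCm38.p6, with capitals where a searched motif matches on either strand.
Sf3b1, chr1:55027479-55027628, minus strand: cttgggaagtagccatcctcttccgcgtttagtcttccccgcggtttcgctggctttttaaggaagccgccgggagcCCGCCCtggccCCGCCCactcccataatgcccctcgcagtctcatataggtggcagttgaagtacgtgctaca
Srsf5, chr12:80945349-80945498, plus strand: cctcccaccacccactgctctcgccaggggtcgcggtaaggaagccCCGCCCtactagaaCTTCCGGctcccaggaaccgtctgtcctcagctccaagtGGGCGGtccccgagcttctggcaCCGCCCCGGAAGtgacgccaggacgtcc
Snrpg, chr6:86371390-86371539, plus strand: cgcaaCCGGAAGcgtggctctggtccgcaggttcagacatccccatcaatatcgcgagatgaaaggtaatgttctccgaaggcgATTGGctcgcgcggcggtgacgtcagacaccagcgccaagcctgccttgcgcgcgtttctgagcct
Snrpa, chr7:27196272-27196421, minus strand, 1 of 2 windows of this gene: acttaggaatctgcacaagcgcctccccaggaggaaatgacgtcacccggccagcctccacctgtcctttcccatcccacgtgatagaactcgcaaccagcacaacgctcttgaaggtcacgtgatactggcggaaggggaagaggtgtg

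The motifs searched were CCGGAAG, the core of ETS factor sites, GGGCGG, the SP1 box, CCAAT, the NFY box, the TATA box in its form TATAAA, and GCATGCGC, part of the NRF1 site. CCGGAAG and GGGCGG can overlap by shared letters, as in the Srsf5 window. Over the full 250 bases before the start, CCGGAAG was in 35.6% of the 45 windows of these genes, against 6.9% of all 32817 windows and 8.98% of the 21230 windows of protein-coding genes. GGGCGG was in 68.9%, against 32.7% of all windows and 42.6% of those of protein-coding genes. CCAAT was in 31.1% and 33.8%, TATAAA in 8.89% and 12.4%, and GCATGCGC in 11.1% and 2.25%. CCGGAAG matched before Srsf5 and Snrpg and not within the 150 bases shown of Sf3b1 and Snrpa, and none of the 5 motifs matched within the 150 bases shown of Snrpa. The median number of CG pairs was 20 in these windows, 10 in those of protein-coding genes and 6 in all windows. A match describes the letters only.

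The arrays differed in signal before any gene is considered. Log2 values were compressed on old replicates 1 and 2, with interquartile ranges of 1.41 and 1.40, while old replicate 3 had 2.44 and the young arrays 2.76 to 2.98. Smell and pheromone receptor genes served to set the level of background, taken as the 95th percentile of their 1372 probe sets. It was 6.31, 6.41 and 5.17 on old replicates 1, 2 and 3 and 4.60 to 4.84 on the young arrays. Of 23410 probe sets, 3393, 3045 and 10738 lay above it on the old arrays and 11988 to 13043 on the young arrays. Of 11 measured markers of B cell progenitors, 5, 4 and 10 lay above it on the old arrays and 11 on each young array, with summed intensities of 3015 to 9398 in the old and 10487 to 11140 in the young group. Of 8 neutrophil markers, 2, 3 and 8 lay above it on the old arrays and 8 on each young array, with summed intensities of 1963 to 8424 in the old and 7925 to 10086 in the young group. The other marker lists had at most 3 of 3 erythroid, 3 of 5 T cell, 4 of 5 monocyte and 3 of 4 plasma cell genes above it on any array. Their summed intensities in the old and the young group were 111 to 186 and 103 to 135 for erythroid, 131 to 214 and 103 to 138 for T cell, 200 to 615 and 749 to 1337 for monocyte and 146 to 202 and 170 to 191 for plasma cell genes. Cd4, Cd8a, Adgre1 and Prdm1 lay within the background on all 6 arrays. The part of array signal and of other cell types in the results below was not tested.

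Most of the 45 genes were much lower on old replicates 1 and 2 and nearly level with the young arrays on old replicate 3. Their median level was 5.76, 6.37 and 8.14 on old replicates 1, 2 and 3, against 8.48, 8.33 and 8.64 on young replicates 1, 2 and 3. Relative to the young mean of each gene, the median difference was -2.60, -2.13 and -0.25 on the 3 old arrays, while over all probe sets tested it was 0.48, 0.43 and 0.05. The median old minus young difference of the 45 genes was -1.86, and the same over all probe sets was 0.35. Old means were lower for 40 of the 45 genes and higher for 5. In these bulk samples, fewer cells expressing a gene and less RNA per cell cannot be told apart.

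**Figure D1:**
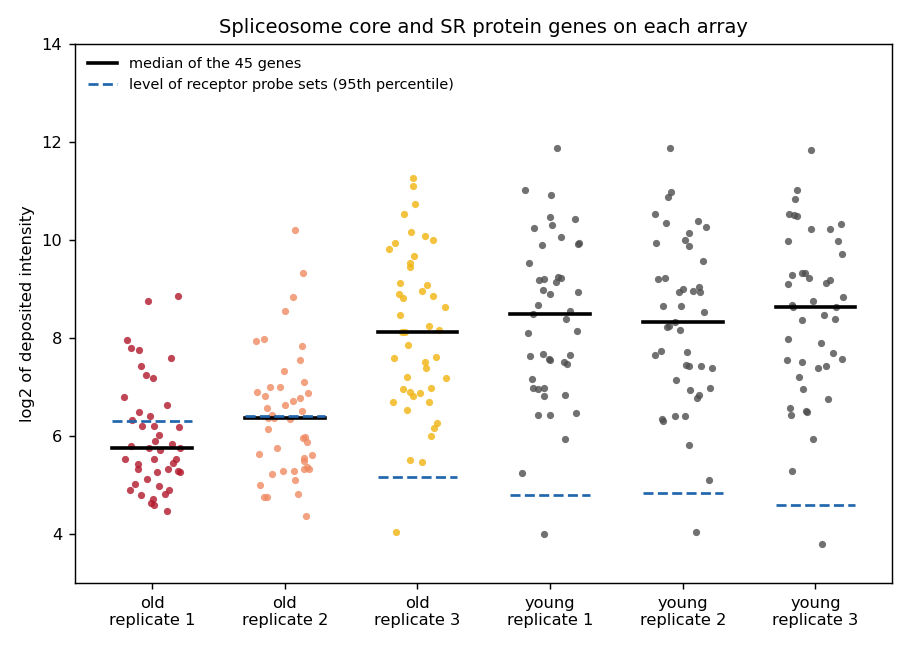
Log2 intensity of the 45 genes on each array (points, spread sideways only for legibility), with their median (black line) and the 95th percentile of receptor gene probe sets (dashed line). The medians are 5.76, 6.37 and 8.14 on old replicates 1 to 3 and 8.48, 8.33 and 8.64 on young replicates 1 to 3, and the dashed line lies above the median on old replicates 1 and 2.

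With limma at an adjusted p under 0.05 over all probe sets, 0 of the 45 genes were called, as were 0% of all 23410 probe sets. The adjusted p of the 45 genes ran from 0.101 to 0.859, and 32 had an unadjusted p under 0.05 with limma, as had 10966 of all probe sets. All 3 old values lay below all 3 young values for 29 genes and above them for 4, against 22.9% and 36.1% of all probe sets, and 12 genes overlapped. These counts depended on the scaling, with 14 lower after quantile normalization, and 38 lower and 0 higher with array medians centred. Among the 2341 probe sets brightest on the young arrays, 1399 lay lower without overlap and 17 higher, and their median difference was -2.06. On old replicates 1, 2 and 3, 14, 21 and 44 of the 45 genes were above the background level, against 44 on each young array. For the 22 genes within it on both old replicates 1 and 2, the size of the difference on those arrays is not measured. The same holds, on that array, for a gene within it on only 1 of these arrays.

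**Figure D2:**
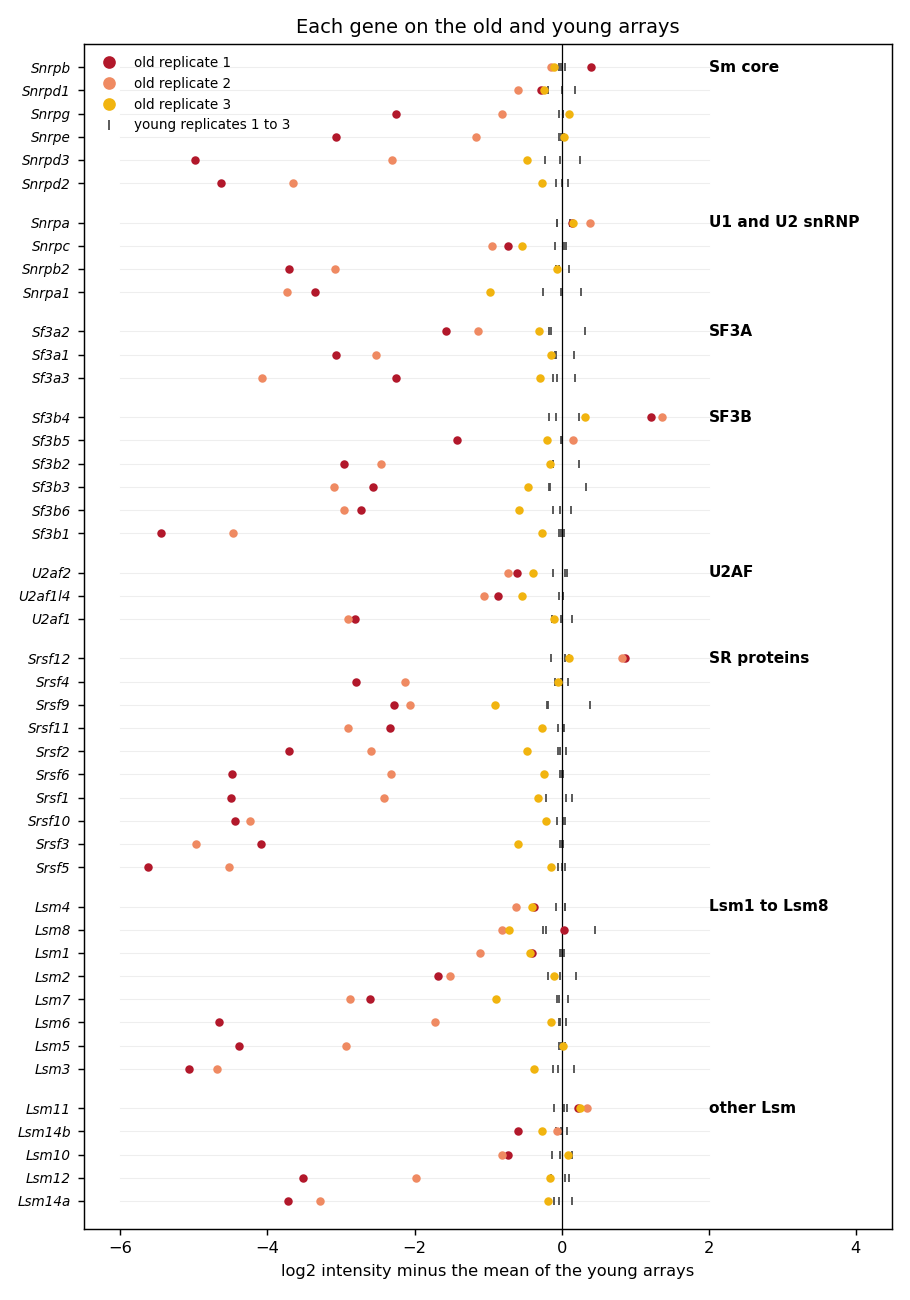
Log2 intensity minus the mean of the young arrays for each of the 45 genes, by role, with coloured points for the 3 old arrays and grey ticks for the 3 young arrays. On the probe set that stands for each gene, old replicate 3 lies within 1 log2 unit of the young mean, while old replicates 1 and 2 reach -5.62 and -4.97.

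The Sm core proteins, which form the ring on the small nuclear RNAs, had 6 measured genes. Of these, 5 had lower old means and 3 did not overlap, all lower. Of all probe sets 22.9% lay lower without overlap, as did 1399 of the 2341 brightest on the young arrays. The median difference of the 6 genes was -1.19. Snrpd2, a ring subunit, was at 5.79, 6.77 and 10.16 in old cells and at 10.42, 10.34 and 10.50 in young cells. Its 3 old values lay below all young values, with most of the distance on old replicates 1 and 2 (difference -2.85 ± 1.03, SE; adjusted p = 0.101 with limma). Snrpd3 was at 5.30, 7.98 and 9.81 in the old group and at 10.06, 10.26 and 10.53 in the young group. Its old replicate 1 was below old replicate 2 but within background, so the size of that gap is not measured. Snrpd2 was also within background on old replicate 1. The ring subunit Snrpe stood at 7.43, 9.33 and 10.54 in old cells and at 10.47, 10.53 and 10.49 in young cells. Its neighbour in the ring, Snrpg, stood at 8.76, 10.21 and 11.11 in old cells and at 11.03, 10.98 and 11.03 in young cells. For both, old replicate 3 was above all young arrays, so the groups overlapped, and all values were above background. The difference was -1.40 ± 0.72 (SE) for Snrpe and -0.99 ± 0.56 (SE) for Snrpg, adjusted p = 0.144 and 0.172 with limma. For Snrpg it was 0.22 after quantile normalization and 0.10 without old replicates 1 and 2.

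Snrpd1 and Snrpb had far smaller differences, and were above background on all 6 arrays. Snrpd1 was at 8.87, 8.55 and 8.91 in old cells and at 9.14, 8.95 and 9.33 in young cells, without overlap but close together (difference -0.37 ± 0.22, SE; adjusted p = 0.194 with limma). Snrpb, which encodes the SmB proteins of the ring, was at 7.19, 6.64 and 6.69 in the old group and at 6.84, 6.78 and 6.76 in the young group. Its groups overlapped, and its difference of 0.05 ± 0.23 (SE) changed sign with the scaling and with the arrays used, being -0.20 with array medians centred and -0.13 without old replicate 1. After quantile normalization it was 1.13.

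The proteins particular to U1 and U2 had 4 genes, and their median difference was -1.51. Snrpa1 encodes a protein of the U2 particle. It was at 5.13, 4.76 and 7.52 in the old group, against 8.48, 8.24 and 8.75 in the young group. Old replicates 1 and 2 were within background, and all 3 old arrays lay well below the lowest young array (difference -2.69 ± 0.70, SE; adjusted p = 0.101 with limma). Its direct partner there, Snrpb2, which touches the U2 RNA, was at 5.90, 6.52 and 9.54 in the old group and at 9.53, 9.57 and 9.71 in the young group. There old replicate 3 was among the young arrays, and the difference of -2.28 ± 0.88 (SE) came from old replicates 1 and 2 (adjusted p = 0.101 with limma). On old replicate 1 Snrpb2 was within background.

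Both U1 proteins measured by the rule stayed above background on every array. Snrpc, whose protein steadies U1 at the start of the intron, was at 6.79, 6.58 and 6.98 in the old group and at 7.55, 7.44 and 7.58 in the young group. The 3 old arrays were close to each other and below all young arrays (difference -0.74 ± 0.21, SE; adjusted p = 0.101 with limma). After quantile normalization the difference was 0.40. Snrpa, which encodes a binder of a U1 RNA hairpin, was at 7.60, 7.83 and 7.60 in the old group, against 7.57, 7.39 and 7.40 in the young group. All old values lay above the young values, by a margin as small as the spread between arrays (0.23 ± 0.20, SE; adjusted p = 0.351 with limma), and the difference was -0.03 with array medians centred. After quantile normalization it was 1.56.

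SF3A, which joins the U2 particle, had 3 measured genes, and all lay lower on all 3 old arrays without overlap. So did 22.9% of all probe sets and 1399 of the 2341 brightest on the young arrays. Sf3a1 was at 4.47, 5.01 and 7.39 in the old group and at 7.47, 7.44 and 7.70 in the young group. Sf3a2 was at 5.55, 5.98 and 6.81 in the old group and at 6.97, 6.94 and 7.43 in the young group. Sf3a3 was at 6.20, 4.38 and 8.16 in the old group and at 8.39, 8.33 and 8.63 in the young group. The distance between the groups was smallest on old replicate 3, and on old replicates 1 and 2 all of these values were within background. Their differences were -1.91 ± 0.72, -1.002 ± 0.36 and -2.21 ± 0.86 (SE), all with an adjusted p of 0.101 by limma.

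In SF3B, the complex that holds the branch point, 5 of 6 genes had lower old means, and the median difference was -1.95. Sf3b1 encodes its largest subunit, which closes around the branch point and is often mutated in human myelodysplastic syndromes. It was at 4.90, 5.88 and 10.08 in the old group, against 10.31, 10.38 and 10.34 in the young group. Old replicates 1 and 2 were within background and old replicate 3 lay just under the young arrays (difference -3.39 ± 1.23, SE; adjusted p = 0.101 with limma). Sf3b2, Sf3b3 and Sf3b6, the last of which encodes the subunit that touches the branch adenosine, had differences of -1.86 ± 0.69, -2.04 ± 0.66 and -2.09 ± 0.61 (SE), none of them with overlap. All were within background on old replicates 1 and 2. Sf3b5, a small subunit, was at 7.25, 8.83 and 8.47 in old cells and at 8.67, 8.66 and 8.68 in young cells. Here old replicate 2 stood above the young arrays and old replicate 1 below them (difference -0.48 ± 0.41, SE; adjusted p = 0.329 with limma).

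Sf3b4 had a difference of the opposite sign. Its protein binds the pre-mRNA next to the branch point, and in humans it is mutated in Nager syndrome. It was at 7.79, 7.94 and 6.89 in the old group and at 6.82, 6.41 and 6.50 in the young group. All 3 old values were above all young values and above background, by little on old replicate 3 (difference 0.97 ± 0.33, SE; adjusted p = 0.101 with limma). Its sign was kept with array medians centred (0.71) and after quantile normalization (2.17). Quantile normalization also gave Snrpb and Snrpa differences of 1.13 and 1.56. A further probe set of Sf3b4 was at 6.67, 7.67 and 6.87 in the old group and at 6.59, 6.76 and 6.84 in the young group, where the groups overlapped and the difference was 0.34 ± 0.30 (SE).

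U2AF reads the end of the intron, and its 3 genes all had lower old means. U2af1, the subunit that contacts the terminal AG, was at 5.43, 5.33 and 8.14 in the old group, against 8.10, 8.22 and 8.38 in the young group. Old replicate 3 lay among the young arrays, and old replicates 1 and 2 were within background (difference -1.94 ± 0.73, SE; adjusted p = 0.101 with limma). U2af2, which binds the pyrimidine tract, was at 6.49, 6.37 and 6.70 in the old group and at 7.17, 7.14 and 6.97 in the young group. U2af1l4, a paralogue that can take the place of U2af1, was at 6.63, 6.44 and 6.96 in old cells and at 7.51, 7.46 and 7.51 in young cells. In both genes the old arrays were close together and below all young arrays, with differences of -0.57 ± 0.21 and -0.82 ± 0.22 (SE), both with an adjusted p of 0.101 by limma. After quantile normalization these differences were 0.38 and 0.26. U2af2 was within background on old replicate 2, where U2af1l4 lay just above it (6.44 against a level of 6.41).

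SR proteins had 10 measured genes and a median difference of -2.30, and 8 of them lay lower without overlap, against 22.9% of all probe sets and 1399 of the 2341 brightest on the young arrays. Srsf5 was at 5.26, 6.35 and 10.74 in the old group and 10.93, 10.88 and 10.83 in the young group. The gap was wide on old replicates 1 and 2, both within background, and 0.14 below the young mean on old replicate 3 (difference -3.43 ± 1.30, SE; adjusted p = 0.101 with limma). Srsf3, the smallest SR protein and an adaptor of mRNA export, was at 7.77, 6.89 and 11.27 in the old group and at 11.87, 11.88 and 11.84 in the young group. It was above background on all 6 arrays, with 6.89 against a level of 6.41 on old replicate 2. Its difference was -3.22 ± 1.04 (SE), and it too had an adjusted p of 0.101 with limma. A dimmer probe set of Srsf3 was within background on old replicates 1 and 2. Srsf10, which acts as a repressor of splicing when dephosphorylated, was at 5.76, 5.97 and 9.997 in the old group and at 10.25, 10.15 and 10.23 in the young group (difference -2.97 ± 1.07, SE). On old replicates 1 and 2 Srsf10 was within background.

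Srsf1 and Srsf2 are the best studied SR proteins, and both bind enhancers in exons. Srsf1 was at 4.64, 6.72 and 8.82 in the old group, against 9.20, 8.94 and 9.29 in the young group. Srsf2, mutated in some human myeloid neoplasms, was at 6.21, 7.33 and 9.46 in the old group, against 9.91, 9.88 and 9.99 in the young group. In each, old replicate 1 was lowest and within background, and old replicate 3 was just under the young arrays. Their differences were -2.42 ± 0.95 and -2.26 ± 0.75 (SE; adjusted p = 0.101 with limma for each). Srsf9 was at 4.90, 5.12 and 6.27 in the old group and at 6.99, 6.98 and 7.56 in the young group, and had the smallest unadjusted p of the 45 genes, 0.00372 with limma (difference -1.75 ± 0.40, SE; adjusted p = 0.101). On old replicates 1 and 2 it was within background. Srsf4, Srsf6 and Srsf11 had differences of -1.66 ± 0.66, -2.35 ± 0.96 and -1.84 ± 0.64 (SE), and of these Srsf4 overlapped. Srsf11 was within background on old replicates 1 and 2, and Srsf6 on old replicate 1. Srsf12 was at 4.82, 4.77 and 4.05 in the old group and at 3.9997, 4.05 and 3.80 in the young group, within background on all 6 arrays, so that no change is read from it.

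The Lsm1 to Lsm8 proteins form rings too: Lsm2 to Lsm8 on the U6 RNA in the nucleus, and Lsm1 to Lsm7 on mRNAs that lose their cap in the cytoplasm. All 8 genes were measured, all had lower old means, and the median difference was -1.61. Lsm3 was at 4.99, 5.37 and 9.68 in the old group, against 9.95, 10.003 and 10.22 in the young group (difference -3.38 ± 1.17, SE; adjusted p = 0.101 with limma). It was within background on old replicates 1 and 2 and only slightly below the young arrays on old replicate 3. Lsm5 was at 5.54, 7.01 and 9.95 in the old group and at 9.90, 9.93 and 9.98 in the young group. Old replicate 3 was among the young arrays on this probe set and on a dimmer one of Lsm5. On the dimmest of its 3 probe sets, old replicate 3 was at 6.56, against 8.06, 7.96 and 7.87 in the young group, a difference of -1.41 from the young mean. Lsm6 was at 4.61, 7.55 and 9.12 in the old group and at 9.24, 9.22 and 9.33 in the young group. For Lsm5 and Lsm6 old replicate 1 lay below old replicate 2 but within background, so the size of that gap is not measured. Lsm7 was at 6.41, 6.14 and 8.12 in the old group, against 8.98, 8.96 and 9.10 in the young group. Here even old replicate 3 was 0.89 below the young mean (difference -2.12 ± 0.51, SE; adjusted p = 0.101 with limma).

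Lsm8, found only in the nuclear ring, was at 7.96, 7.12 and 7.21 in the old group and at 7.68, 7.72 and 8.39 in the young group, with old replicate 1 among the young arrays (difference -0.50 ± 0.33, SE; adjusted p = 0.221 with limma). Lsm1, found only in the cytoplasmic ring, was at 6.03, 5.33 and 6.01 in old cells and at 6.47, 6.42 and 6.43 in young cells (difference -0.65 ± 0.26, SE; adjusted p = 0.102 with limma). Lsm4 was at 5.54, 5.29 and 5.52 in the old group and at 5.95, 5.83 and 5.95 in the young group. Old values of Lsm1 and Lsm4 were below all young values, yet within background on old replicates 1 and 2. Lsm2 had a difference of -1.10 ± 0.44 (SE), with overlap, and was also within background on old replicates 1 and 2.

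Outside these rings, Lsm14a, a protein of cytoplasmic mRNA granules, was at 5.33, 5.76 and 8.86 in the old group, against 8.95, 9.01 and 9.18 in the young group (difference -2.40 ± 0.88, SE; adjusted p = 0.101 with limma). Its paralogue Lsm14b was at 5.84, 6.37 and 6.17 in the old group and at 6.43, 6.36 and 6.51 in the young group, with overlap and a difference of -0.31 ± 0.22 (SE). Both were within background on old replicates 1 and 2. Lsm10 and Lsm11 belong to the U7 particle, which trims histone transcripts. Lsm11 was at 5.45, 5.56 and 5.47 in the old group and at 5.26, 5.11 and 5.29 in the young group, above the young arrays but within background on old replicates 1 and 2. Lsm10 and Lsm12 had differences of -0.48 ± 0.29 and -1.88 ± 0.77 (SE), the first with overlap and the second without. Lsm10 was within background on old replicates 1 and 2, and Lsm12 on old replicate 1.

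Of the 45 genes, 11 had 2 or more probe sets of their own, 29 in all, and these bear on whether the chosen probe set speaks for the gene. The sign was the same on all probe sets for 10 of the 11. The 5 probe sets of Snrpd2 ran from -3.00 to -1.69, the 3 of Srsf3 from -3.22 to -2.24, and the 2 of Srsf5 from -3.51 to -3.43. Snrpg was at -0.99 on the brightest probe set and at -2.16 on the other. On that other probe set it stood at 6.01, 6.89 and 9.64 in the old group and at 9.63, 9.68 and 9.70 in the young group, within background on old replicate 1. Snrpc was the exception, with 2 probe sets lower at -0.96 and -0.74 and 1 higher at 0.33, each without overlap. That higher probe set was at 6.24, 6.26 and 5.87 in the old group, against 5.81, 5.82 and 5.76 in the young group, and it was within background on old replicates 1 and 2. Probe sets of near-identical copies, such as pseudogenes, cannot be told from the gene here.

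**Figure D3:**
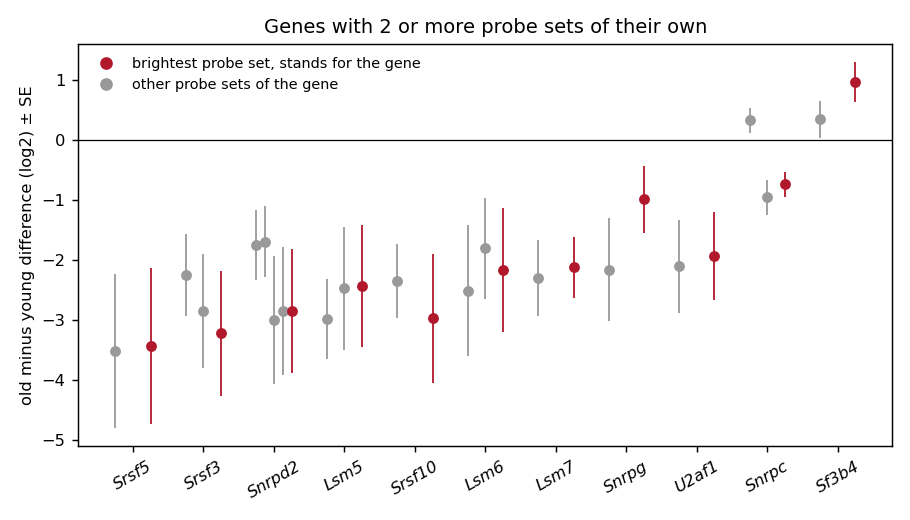
Old minus young difference (log2, point) with its standard error (line) for every probe set of the 11 genes with 2 or more probe sets, the brightest in red and the others in grey. Snrpc alone has probe sets on both sides of 0, from -0.96 to 0.33.

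Because old replicates 1 and 2 stood apart in signal from the other arrays, the comparison was repeated without them and without old replicate 3. Without old replicate 3, limma called 36 of the 45 genes lower and 2 higher, Sf3b4 and Srsf12, where 30.2% of all probe sets were called lower and 52.2% higher. Of the 2341 probe sets brightest on the young arrays, 2248 were called lower and 19 higher. Srsf12 was within background on all 6 arrays, so no change is read from its call. Old replicate 3 alone against the young arrays, on the assumption that it varies as they do, had 4 of the 45 genes called lower and 0 higher. Of all probe sets 5.24% were called lower and 1.76% higher, and of the 2341 brightest 232 were called lower. The genes called were Lsm7 (-0.89), Snrpa1 (-0.97), Srsf3 (-0.59) and U2af1l4 (-0.53). Srsf9 had a difference of -0.91 there and did not pass. Which genes were called depended on the probe set that stands for the gene. On old replicate 3 a dimmer probe set of Srsf10 differed from its young mean by -0.87 and one of Lsm5 by -1.41. The other probe sets of Srsf3 differed by -0.53 and -0.47.

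On old replicate 3, 33 of the 45 genes were below all young arrays and 6 above, against 31.8% and 41.7% of all probe sets and 1415 and 489 of the 2341 brightest. The differences ran from -0.97 to 0.32. Snrpe, Snrpg, Snrpa, Sf3b4, Srsf12 and Lsm11 were the genes above. Across the 45 genes, which are not independent replicates and share each array and the same young mean, the differences on old replicates 1 and 2 correlated at r = 0.85. Those on old replicates 1 and 3 correlated at r = 0.19, and those on old replicates 2 and 3 at r = 0.39.

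**Figure D4:**
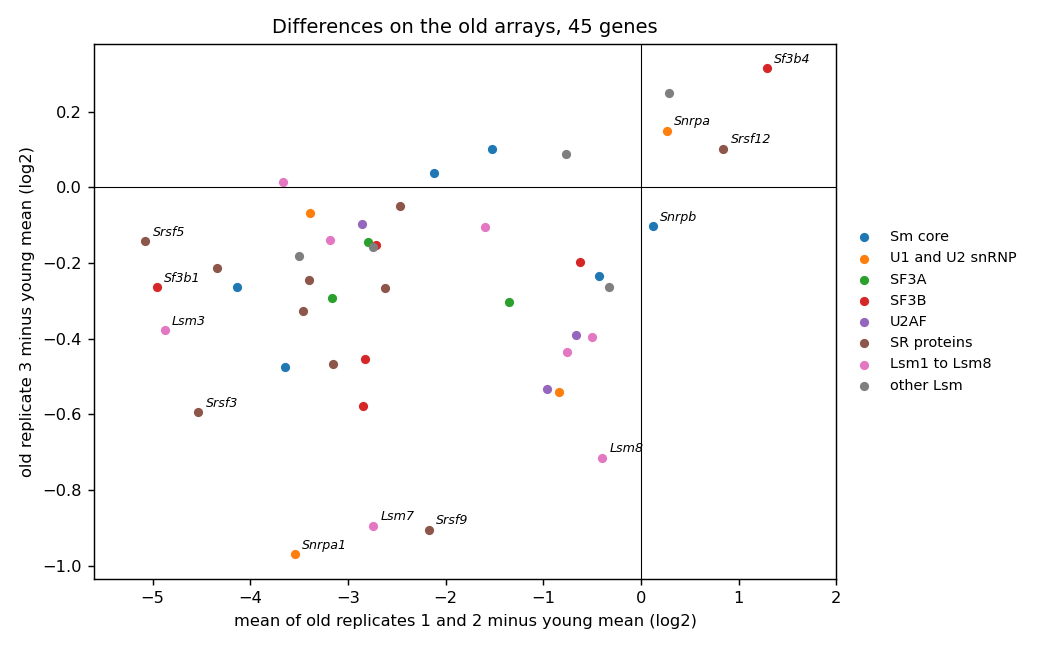
Difference from the young mean (log2) on old replicate 3 (vertical axis) against the mean of old replicates 1 and 2 (horizontal axis) for the 45 genes, coloured by role. The vertical axis spans -0.97 to 0.32 only, and Lsm7, Srsf9 and Snrpa1 lie lowest on it.

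Further genes of the pathway were read from lists outside the rule. Of 47 other spliceosome genes, such as those of the U4/U6 and U5 particles, 33 lay lower without overlap and 0 higher, and 0 were called (37 at an unadjusted p under 0.05 with limma). Over all 23410 probe sets, 5365 lay lower and 8448 higher without overlap, and 10966 had such a p with limma. The median difference of the list was -1.54, and that of the 2341 brightest probe sets, of which 1399 lay lower without overlap, was -2.06. On both old replicates 1 and 2, 39 of the 47 genes were within background, as were 19306 of all 23410 probe sets. For such genes the size of the difference on those arrays is not measured. Dhx15, the helicase that takes the spliceosome apart, was lowest at 4.83, 6.73 and 9.40 in the old group and 9.85, 9.87 and 9.99 in the young group. Phf5a, a small SF3B subunit outside the rule's symbols, was at 6.33, 6.67 and 7.65 in the old group and at 8.45, 8.47 and 8.76 in the young group. Its difference of -1.68 ± 0.37 (SE) had the smallest unadjusted p in that list, 0.00273 with limma. Prpf40b was highest, at 0.49 ± 0.28 (SE), with overlap, and within background on all 6 arrays, so that no change is read from it.

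Kinases and partners of SR proteins had a median difference of -2.28 over 11 genes, near the -2.06 of the brightest probe sets, and 9 of them lay lower without overlap, against 22.9% of all probe sets. Of the 11, 6 were within background on both old replicates 1 and 2, Clk4 among them. Clk4, a kinase that phosphorylates SR proteins in the nucleus, was at 5.03, 5.55 and 9.28 in the old group, against 9.999, 10.09 and 9.70 in the young group. Tra2a, an SR-like splicing activator, was at 6.54, 6.16 and 8.27 in the old group and at 9.04, 8.91 and 9.04 in the young group, and both genes stayed below all young arrays on old replicate 3. Clk3 was highest at -0.90 ± 0.41 (SE). Among 19 hnRNP genes, whose proteins coat transcripts and often oppose SR proteins, 15 lay lower without overlap and 1 higher, against 22.9% and 36.1% of all probe sets. The median difference was -1.99, also near that of the brightest probe sets. On both old replicates 1 and 2, 8 of the 19 were within background, Hnrnpk among them. Hnrnpk was at 5.20, 5.76 and 10.63 in the old group, against 10.64, 10.67 and 10.68 in the young group, so that old replicate 3 nearly met the young arrays. Hnrnpdl had a difference of -1.84 ± 0.52 (SE), and Hnrnpa0, within background on all 3 old arrays, of 0.49 ± 0.23 (SE).

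The 12 genes of snRNP assembly, the SMN complex and the methylation of Sm proteins, had a median difference of -0.77, with 10 lower without overlap, against 22.9% of all probe sets. Of these 12, 10 were within background on both old replicates 1 and 2, where the size of a difference is not measured. Gemin6, a subunit of the SMN complex, was at 6.38, 6.25 and 6.44 in the old group and at 7.54, 7.36 and 7.71 in the young group. Its 3 old arrays were nearly equal and lay about as far below the young arrays on old replicate 3 as on the others (difference -1.18 ± 0.21, SE; unadjusted p = 0.000833 and adjusted p = 0.101 with limma). It was within background on old replicate 2, just above it on old replicate 1 and well above it on old replicate 3. Clns1a had a difference of -2.20 ± 0.81 (SE) and Gemin8 of -0.0043 ± 0.22 (SE), both within background on old replicates 1 and 2. For mRNA decapping, where the Lsm1 to Lsm7 ring acts, the 9 genes had a median difference of -1.23, with 5 lower without overlap, against the same 22.9%. Of these 9, 8 were within background on both old replicates 1 and 2. Ddx6 had a difference of -2.75 ± 1.0003, Patl1, which binds that ring, of -1.78 ± 0.51, and Edc4 of 0.13 ± 0.21 (SE). Each was within background on old replicates 1 and 2.

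**Figure D5:**
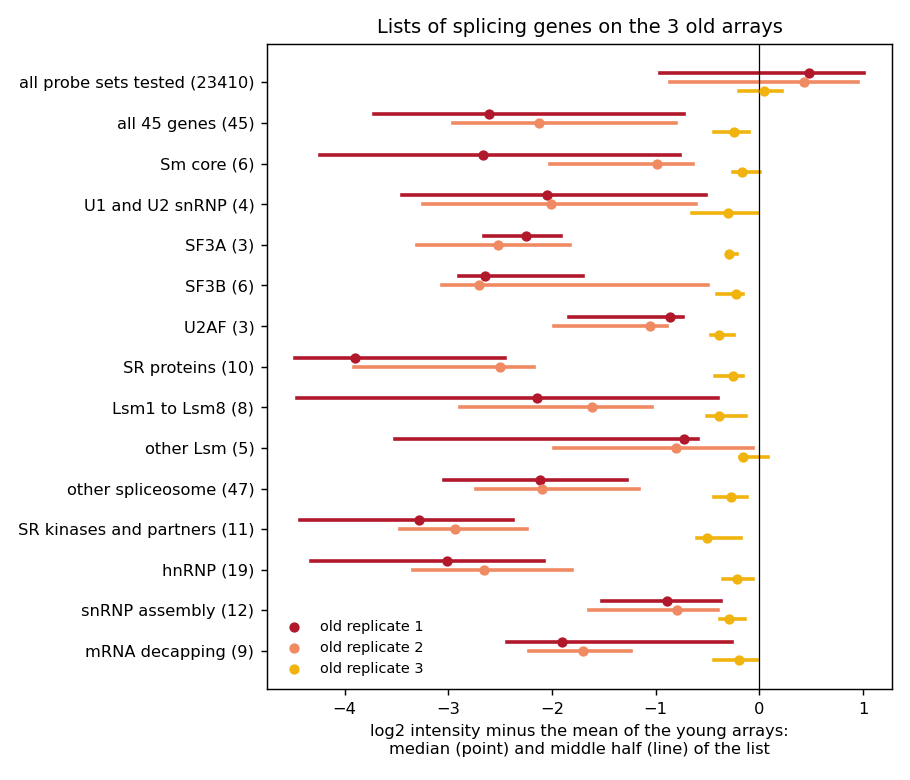
Difference from the young mean (log2) on each old array for all probe sets tested, the 45 genes, their 8 role lists and 5 related lists, as the median (point) and the span from the lower to the upper quartile (line), with the number of measured genes in brackets. The medians of all 45 genes are -2.60 and -2.13 on old replicates 1 and 2 and -0.25 on old replicate 3, and those of all probe sets are 0.48, 0.43 and 0.05.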

How the data were processed

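The deposited table holds 28940 probe set intensities on each of 6 arrays, which the authors made with RMA, per the submitters' processing notes. No source used here gives the settings of RMA. The deposited intensities run from 3.58 to 8502, a linear scale, and were turned into log2 values. In the platform's annotation 21789 probe sets have 1 gene, 1621 several and 5530 none, and the 23410 with a gene entered the fit by limma 3.58.1 under R 4.3.3 (age group as the only factor, 2-sided, Benjamini-Hochberg, adjusted p under 0.05). All 45 symbols matched RefSeq by gene ID. Figures were drawn with matplotlib 3.10.9, and tables made with pandas 2.3.3 in Python 3.11.15. The number of arrays limits the precision, and an exact permutation test of 3 against 3 cannot go below p = 0.1.

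The 45 genes and the lists were chosen with earlier results of these data known. Values are given on all arrays for 29 genes: in each role the highest and lowest young mean, the 6 lowest and 6 highest differences, the 4 smallest p, genes with several probe sets, and a few well-known genes. Other genes were added for completeness, after their values were seen, as were the 4 promoters shown. In the related lists the lowest and highest difference and the smallest p are named.

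The titles give both groups replicates 1 to 3. After each group's mean was taken off, arrays of the same number correlated at 0.157, 0.15 and 0.279, all over the limit of 0.1, although old replicate 1 also correlated at 0.153 with young replicate 2. The replicate number as a block was an alternative. Other alternatives were centred array medians, quantile normalization, a filter on dim probe sets (below the 30th percentile, 4.32), all probe sets, trended robust moderation, array weights, each array left out, old replicates 1 and 2 left out, adjusted p under 0.1, the mean of a gene's probe sets, and values raised to the receptor level. Counting only genes above that level on all young arrays was added after seeing the data. The fit with its main settings was tested on simulated data with the same spread on every array, unlike the arrays here. The alternative fits were not tested in this way.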

Additional observations from a re-analysis of the deposited data

How the results depend on the processing

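The count of called genes stayed at 0 of the 45 and 0 of all probe sets with all probe sets tested, array medians centred, quantile normalization, trended robust moderation, dim probe sets left out, adjusted p under 0.1, and the replicate number as a block (0 and 0; smallest adjusted p 0.081 with limma). The block changed no other call. Leaving out 1 array gave from 0 to 38 of the 45 genes and from 0 to 19285 of all probe sets with limma, the higher value in each case without old replicate 3. Array weights, whose estimate stopped short of its convergence tolerance, called 42 of the 45 and 19998 of all, and leaving out old replicates 1 and 2 called 4 of the 45 and 1638 of all. The median difference of -1.86 ran from -2.71 to -1.06 under the other alternatives and was -0.25 without old replicates 1 and 2. The count of 29 genes lower without overlap was 14 after quantile normalization, a drop by over 1.5 times, and 28 to 38 otherwise; the 4 higher were 0 with array medians centred and 3 to 6 otherwise. Values raised to the receptor level still count Srsf12, which lies within that level throughout, because the level itself is higher on the old arrays.

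Of 359 alternative differences of 29 genes, 291 kept their sign and side of the threshold, 56 newly passed it and 12 changed sign, in 8 genes; the cause was not tested. Snrpb was -0.20 with array medians centred, -0.10 with array weights, -0.10 without old replicates 1 and 2, and from -0.13 to 0.15 when 1 array was left out. With array medians centred Snrpa was -0.028. After quantile normalization Snrpg was 0.22, Snrpc 0.40, U2af1l4 0.26, U2af2 0.38 and Lsm14b 0.34. Without old replicates 1 and 2 Snrpg was 0.10 and Lsm5 0.015. Background on old replicates 1 and 2 limits what can be measured there.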

Other observations

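Probe sets shared with another gene fell outside the rule and cannot be assigned to either gene. A probe set shared by Snrpf, the remaining Sm ring subunit, and Gm13092 was at 9.11, 9.90 and 10.70 in old cells and at 10.65, 10.61 and 10.69 in young cells. Old replicate 3 was above all young arrays there, and old replicates 1 and 2 were lower but above background, as for Snrpe and the brightest probe set of Snrpg. A probe set shared by Snrpn, the brain form of SmB, and Snurf was at 3.44, 3.91 and 3.27 in the old group and at 3.14, 3.03 and 3.14 in the young group, within background on all 6 arrays. The probe set shared by U2af1l4 and Igflr1 was at 7.90, 7.18 and 7.02 in the old group and at 7.17, 7.29 and 7.23 in the young group, where the groups overlapped.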
